A study of Carassius auratus with 9 samples.

Results

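Back skin without pigment color was compared with back skin of the brown and yellow fish of the same breed, taken as 1 pigmented group. All 9 libraries of the series entered: 3 from white skin, and 6 from pigmented skin, of which 3 were brown and 3 yellow. The groups follow the skin color in the labels, and no measured value was used to form them. The fish were celestial goldfish, a fancy breed of Carassius auratus, sampled at 4 months of age, and the RNA was total RNA of back skin in all 3 colors. The labels call the 3 libraries of each color biological replicates and do not say more about the fish behind them, so p-values measure the spread between these libraries. For the genes the results turn on, brown and yellow values are given beside the pooled ones, because a gene shared by pigmented skin should differ from white skin in both.

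Fish skin takes its color from several kinds of pigment cell that arise from the neural crest. Melanophores make dark melanin in melanosomes with tyrosinase and its relatives, xanthophores hold yellow to orange pteridines and carotenoids, the latter in lipid droplets, and iridophores reflect light from stacks of purine crystals. White goldfish skin lacks visible dark and yellow pigment, and in bulk skin fewer pigment cells and less RNA per pigment cell cannot be told apart.

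The 74297 genes of the files drew 13772601 to 17359648 reads in each library. Levels are in FPKM (fragments per kilobase, relative to library size), in which a single read on 1 kilobase counts for 0.0448 to 0.0891. Skeletal muscle markers took 1.93% to 31.0% of reads in white libraries and 0.190% to 25% in pigmented ones. The highest shares were in the library numbered 3 of each color, 18.4% to 31.0% against at most 10.9% elsewhere. Keratinocyte markers, the defining genes of epidermis, took 0.903% to 5.40% and 0.888% to 4.26%. The white and pigmented labels were set against 11 copies of tyrosinase, tyrosinase-related protein 1, dopachrome tautomerase and PMEL. These summed to 17, 20 and 15 reads in the white libraries, 257, 806 and 259 in brown and 629, 223 and 184 in yellow. The sums overlap between brown and yellow, so they do not check those labels, and the same genes are described again below. Goldfish carry many near-identical gene copies; the sources used here do not say how reads shared by copies were handled or whether strand was used, so the value of a single copy is uncertain.

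Of 27420 genes tested, 10 differed between pigmented and white skin (limma, Benjamini-Hochberg adjusted p under 0.05), which is 0.0365% of genes. In pigmented skin 6 were higher (0.0219%) and 4 lower (0.0146%). The lower ones were all copies of the coagulation factor XIII A chain, and the higher ones included a retinol dehydrogenase, a seipin, a putative defense protein and a transglutaminase. In each of the 10 genes all 6 pigmented libraries lay on one side of all 3 white ones, which was so for 1077 tested genes (3.93%), 647 above white (2.36%) and 430 below (1.57%). For the factor XIII A copies LOC113042211 and LOC113065965 the filter on low values fixed this, because no pigmented library reached 1 FPKM. An unadjusted p under 0.05 was reached by 1617 genes (5.9%), of which 1053 were higher (3.84%) and 564 lower (2.06%). The median log2 change of all tested genes was -0.03, and 13006 of the 27420 had a positive change.

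**Figure D1:**
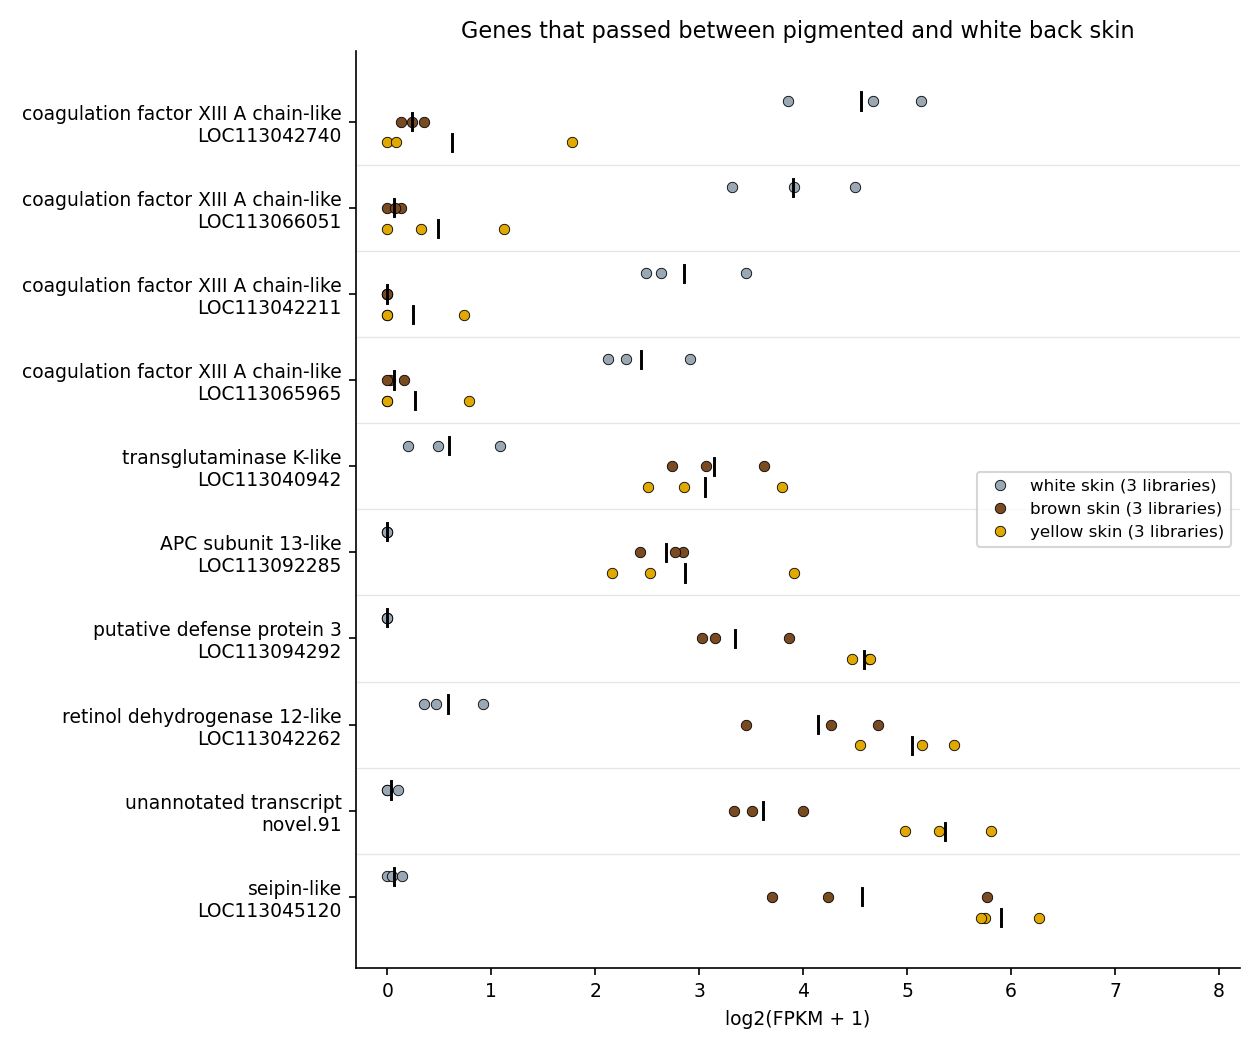
Level of the 10 genes that passed, on log2(FPKM + 1), in each of the 9 libraries (points) with the mean of the 3 libraries of a color (black ticks). In the upper 4 genes, factor XIII A copies, the 3 white libraries lie above all pigmented ones; in the lower 6 they lie below, at 0 in every white library for the putative defense protein 3 and anaphase-promoting complex (APC) subunit 13 copies.

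The genes that passed with higher levels in white skin were copies of coagulation factor XIII A chain, the catalytic subunit of a transglutaminase that cross-links fibrin in clotting. LOC113042740 (chromosome 24, 7353191 to 7366546) had 13.4, 24.5 and 34.1 FPKM in the white libraries, 0.0941, 0.179 and 0.274 in brown, and 2.43, 0 and 0.0603 in yellow. The log2 change was -4.12 ± 0.42 (SE, limma adjusted p = 0.00685). LOC113066051 (chromosome 49, 3572535 to 3585956) had 8.97, 14 and 21.5 FPKM in white, 0.0929, 0 and 0.0514 in brown, and 1.18, 0 and 0.255 in yellow. Its log2 change was -3.63 ± 0.32 (limma adjusted p = 0.00685). In both copies every white library stood far above the pigmented ones, and yellow 1 was the highest of the pigmented libraries.

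LOC113042211 (chromosome 24, 7398476 to 7414168) had 4.60, 5.21 and 9.91 FPKM in white, no read in any brown library, and 0.667, 0 and 0 in yellow (log2 change -2.73 ± 0.28, limma adjusted p = 0.00685). LOC113065965 (chromosome 49, 14248912 to 14262082) had 3.34, 3.91 and 6.53 FPKM in white, 0.0199, 0 and 0.116 in brown, and 0.724, 0 and 0 in yellow (log2 change -2.28 ± 0.27, limma adjusted p = 0.0174). The pooled reads of LOC113042740, LOC113066051, LOC113042211 and LOC113065965 were 38.7-fold, 46.9-fold, 45.5-fold and 26.5-fold lower in pigmented skin. Without yellow 1 the folds of LOC113042740, LOC113066051 and LOC113065965 were 206, 198 and 197. LOC113042211 then had no pigmented read and was at least 463-fold lower, against a floor of 3 reads over the pigmented libraries, so that 1 library held most of the pigmented reads of all 4 copies.

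The other copies of factor XIII A behaved differently. LOC113042741 (chromosome 24, 7712413 to 7730841) had 1.65, 1.4 and 2.07 FPKM in white and at most 0.212 in a pigmented library, and did not pass (log2 change -1.34, limma adjusted p = 0.0949). The copy with the most reads, LOC113105860 on chromosome 7, had 47.4, 85.2 and 32.7 FPKM in white, 47.3, 28.2 and 33.9 in brown and 61.8, 63.1 and 30.0 in yellow, and the groups overlapped. LOC113079139, on unplaced sequence, also overlapped, with 5.84 to 23.9 FPKM in white and 2.94 to 16.6 in pigmented skin. LOC113040869 on chromosome 23 had no read in any library. Summed over the 8 copies, factor XIII A stood at 121 ± 34 FPKM in white skin (SD, n = 3) and 54.3 ± 21.9 in pigmented skin (SD, n = 6, with 42.7 in brown and 65.9 in yellow). The sum did not overlap between groups (91.6 to 158 in white, 34.8 to 81.8 in pigmented) but did not pass (log2 change -1.20 ± 0.40, limma adjusted p = 0.692). The copies on chromosomes 24 and 49 thus lay higher in all white libraries, while the remaining copies with reads overlapped. For LOC113042211, LOC113065965 and LOC113042741 this was fixed by the filter on low values (1 FPKM in 3 or more libraries). No pigmented library reached 1 FPKM, so these copies could be tested only with all 3 white libraries at 1 FPKM or more.

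Another transglutaminase moved the other way. LOC113040942 (chromosome 23, 970685 to 980661), a copy of protein-glutamine gamma-glutamyltransferase K, the enzyme that cross-links the cornified envelope of keratinocytes in mammals, had 0.398, 0.145 and 1.12 FPKM in white, 5.68, 7.35 and 11.3 in brown, and 4.69, 12.9 and 6.23 in yellow. It rose by 2.51 ± 0.34 on the log2 scale (limma adjusted p = 0.0434), and the pooled fold was 17.0, or 27.9 without white 3. Brown and yellow differed by 0.09 on the log2 scale, less than their spread. Over the 26 annotated copies of this enzyme the sum was 11.2 ± 3.52 FPKM in white and 20.6 ± 4.75 in pigmented skin (21.1 in brown and 20.2 in yellow), which did not pass (limma adjusted p = 0.749). The median over keratinocyte markers was 0.46 on the log2 scale (brown 0.70, yellow 0.38). Of 40 tested copies 31 were positive and none was called. An unadjusted p under 0.05 was reached by 6, all higher, and 1 lay above all white libraries. Of all 27420 tested genes 13006 were positive, 3.84% were higher at that p and 2.36% lay above all white libraries. The part of keratinocyte markers in the transglutaminase K result was not tested.

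Among genes of lipid droplets and retinoids, 2 of 47 tested copies passed, both higher in pigmented skin. Of all tested genes 0.0365% passed, and 0.0219% passed as higher. LOC113045120 (chromosome 27, 3480392 to 3485304) is a copy of seipin, a protein that shapes lipid droplets at the endoplasmic reticulum. It had 0, 0.0316 and 0.101 FPKM in white, 17.8, 53.6 and 12 in brown, and 52.6, 51.3 and 76.1 in yellow. The log2 change was 5.18 ± 0.54 (limma adjusted p = 0.00702), with 3 reads in all white libraries against 7776 in pigmented ones, a ratio of 1305 (95% counting interval 446 to 6329). This ratio was 739 without white 1 and 3061 without white 3. Another seipin copy, LOC113113763 (chromosome 14), had 1.29 to 4.25 FPKM in white and 9.40 to 54.5 in pigmented skin. LOC113113763 did not pass (log2 change 2.76, limma adjusted p = 0.295). The sum over all 5 seipin copies was 5.24 FPKM in white and 73.2 in pigmented skin (53.9 in brown and 92.4 in yellow) and did not pass (log2 change 3.34 ± 0.54, limma adjusted p = 0.114).

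Retinol dehydrogenase 12-like LOC113042262 (chromosome 24, 10404792 to 10407468), an oxidoreductase of the retinoid cycle, had 0.275, 0.385 and 0.890 FPKM in white, 18.2, 25.4 and 9.89 in brown, and 34.4, 42.6 and 22.4 in yellow. It rose by 4.02 ± 0.41 on the log2 scale (limma adjusted p = 0.00685), 60.7-fold in pooled reads. The 10 copies together had 6.59 to 11.5 FPKM in white and 15.8 to 51.6 in pigmented skin. Their sum did not overlap between groups but did not pass (log2 change 1.80 ± 0.39, limma adjusted p = 0.315). The neighbor of LOC113042262 by name, LOC113042263, had at most 0.122 FPKM in white and 1.24 to 12.2 in pigmented skin without passing (limma adjusted p = 0.544).

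Further lipid and carotenoid genes were read in all pigmented libraries and hardly in white without passing in the pooled comparison. These were picked after their values were seen. Perilipin-3-like LOC113059134 (chromosome 41), a coat protein of lipid droplets, had at most 0.148 FPKM in white, 1.74 to 4.61 in brown and 7.57 to 13.4 in yellow (log2 change 2.70, limma adjusted p = 0.191). One color at a time, it passed in yellow (log2 change 3.44, limma adjusted p = 0.00894). It did not pass in brown (log2 change 1.96, limma adjusted p = 0.313). Diacylglycerol O-acyltransferase 2 (LOC113054403), which makes triglycerides, was without reads in white and had 1.28, 2.24 and 0.488 FPKM in brown, and 9.87, 5.22 and 8.02 in yellow (limma adjusted p = 0.544). A beta,beta-carotene 15,15'-dioxygenase-like gene (LOC113051774), of the enzymes that split carotenoids into retinal, had 0.0457, 0 and 0 FPKM in white, 1.64, 1.95 and 0.939 in brown and 3.17, 3.96 and 0.754 in yellow (limma adjusted p = 0.356). Over the whole list of carotenoid, retinoid and lipid droplet genes the median log2 change was 0.04, so the differences sat in a minority of copies. In that list 9 tested copies were higher and 3 lower at an unadjusted p under 0.05, and 8 lay above all white libraries. Over all tested genes the shares were 3.84%, 2.06% and 2.36%. Copies such as LOC113045120 and LOC113059134, with at most 0.101 and 0.148 FPKM in white, passed the filter on low values through pigmented libraries alone. The counts of this list therefore depend in part on the filter.

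Of the remaining genes that passed, 2 had no read in any white library. Putative defense protein 3 (LOC113094292, unplaced sequence, 60766 to 62666) had 7.18, 13.5 and 7.90 FPKM in brown and 21.2, 23.8 and 24.0 in yellow (log2 change 3.96 ± 0.40, limma adjusted p = 0.00685). Against a floor of 3 reads over the 3 white libraries it was at least 234-fold higher in pigmented skin, and at least 132-fold without white 1. Among the families of the 10 genes only this one had a sum that passed (log2 change 3.87 ± 0.40, limma adjusted p = 0.00601). Its 3 copies had 0.0955 FPKM in white and 16.6 in pigmented skin. LOC113094292 alone held 16.25 of the pigmented FPKM and was the only copy tested, so the sum repeats its call.

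A copy of anaphase-promoting complex subunit 13 (LOC113092285, unplaced sequence, 40618 to 41505), a small subunit of the ubiquitin ligase that drives cells through mitosis, had 4.40, 6.17 and 5.79 FPKM in brown and 4.75, 3.48 and 14.1 in yellow (log2 change 2.77 ± 0.34, limma adjusted p = 0.0228). Against the same floor it was at least 54-fold higher, and at least 30.6-fold without white 1. The other copies carried this gene in white skin: over the 3 copies the sum was 19.5 FPKM in white and 21.3 in pigmented skin, a log2 change of 0.17 ± 0.35 (limma adjusted p = 0.914).

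The last gene is a transcript without annotation on chromosome 2 (25874338 to 25878146). It had 0.0742, 0 and 0 FPKM in white, 15.0, 10.4 and 9.07 in brown, and 55.1, 38.5 and 30.5 in yellow (log2 change 4.45 ± 0.53, limma adjusted p = 0.0200). It had 2 reads in white and 3489 in pigmented skin, a ratio of 878 (95% counting interval 243 to 7255). Both white reads were in white 1, and without it the transcript was at least 332-fold higher against the floor of 3 reads.

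Set against white skin one color at a time, brown gave 10 genes that passed (0.0365%) and yellow 12 (0.0438%), and both used the same 3 white libraries. Of the 10 genes of the pooled comparison, 7 passed in each color, and these were the putative defense protein, seipin, retinol dehydrogenase 12, the chromosome 2 transcript and 3 factor XIII A copies. LOC113065965, the anaphase-promoting complex copy and the transglutaminase K copy passed in neither color alone and were called with all 6 pigmented libraries together. Yellow calls outside the 10 included perilipin-3-like LOC113059134 (limma adjusted p = 0.00894), MART-1 copy LOC113081155 (0.0149) and opsin-5 copy LOC113098145 (0.0471). None of these passed in brown (limma adjusted p = 0.313, 0.480 and 0.420). No gene passed between brown and yellow (0%), where 457 (1.67%) had an unadjusted p under 0.05. Among those 457 were 3 of the 10: the chromosome 2 transcript (log2 difference -1.75), the putative defense protein (-1.23) and seipin (-1.34), each lower in brown; after limma's adjustment over all genes the p of each was 1.00.

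The 10 calls differed in how many libraries they could spare. Leaving out white 1 kept 2 calls, LOC113066051 and LOC113042740, and leaving out white 2 or white 3 kept none, although 686 and 1706 genes then had an unadjusted p under 0.05. LOC113042211 and LOC113065965 dropped below the filter on low values whenever a white library was left out. When single pigmented libraries were left out, the transglutaminase K call was lost without any one of 5 of the 6 (all but yellow 1), the APC subunit 13 call without each brown library, the chromosome 2 transcript without brown 1 or yellow 3, and LOC113065965 without brown 1; the other 6 calls held each time. Without the libraries numbered 3, the ones richest in muscle reads, no gene passed and 1301 had an unadjusted p under 0.05. That setting also lacks white 3, and leaving out white 3 alone already kept no call. The part of muscle reads in this loss was not tested. The direction of each of the 10 genes was the same under every setting in which it was tested. With the muscle score of each library as a covariate the 10 genes passed along with 1 more.

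Genes of melanin synthesis and the melanosome were higher in pigmented skin in several copies, none of which passed in the pooled comparison. Of 50 matched copies 22 had enough reads to be tested. Of these, 10 had an unadjusted p under 0.05, all higher in pigmented skin (3.84% of all tested genes), and 6 lay above all white libraries (2.36%). The list's median log2 change was 0.89 (0.70 in brown and 0.82 in yellow). The filter on low values admitted copies low in white skin through any 3 of the 6 pigmented libraries. Copies LOC113081155 and LOC113079820, with at most 0.197 and 0.0702 FPKM in white, entered through pigmented libraries alone. The counts and the median of this list therefore depend in part on the filter. Read counts of most melanin genes were low, and therefore reads were also summed over all copies of a gene and given as RPM, per 1000000 reads of the library total that the FPKM imply.

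Tyrosinase, the first enzyme of melanin synthesis, summed to 12, 10 and 9 reads in white, 40, 100 and 34 in brown, and 120, 49 and 31 in yellow. In RPM this was 0.632 ± 0.147 in white, 3.75 ± 2.42 in brown and 3.64 ± 2.02 in yellow (SD, n = 3 each). Tyrosinase-related protein 1 (annotated as 5,6-dihydroxyindole-2-carboxylic acid oxidase), which acts later toward black melanin in mammals, had 0, 2 and 1 reads in white, 105, 407 and 151 in brown, and 11, 9 and 7 in yellow. All pigmented libraries stood above white for both enzymes, and most reads of tyrosinase-related protein 1 were in brown.

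PMEL, which forms the fibrils of the melanosome, had 3, 8 and 5 reads in white, 96, 257 and 74 in brown, and 496, 163 and 146 in yellow. MART-1 (mlana), a melanosome membrane protein, had 0, 4 and 0 reads in white, 86, 120 and 44 in brown, and 430, 166 and 261 in yellow. Their copies had the smallest p of the list: MART-1 copy LOC113081155 (limma adjusted p = 0.245), MART-1 copy LOC113079820 (0.276) and PMEL copy LOC113069261 (0.350). White skin was thus nearly without reads of these genes, and the yellow mean exceeded the brown one in each. One color at a time, MART-1 copy LOC113081155 passed in yellow (log2 change 3.52, limma adjusted p = 0.0149). It did not pass in brown (log2 change 1.97, limma adjusted p = 0.480).

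The transporter slc45a2, which sets melanosome pH, summed to 0.584 ± 0.116 RPM in white, 3.34 ± 2.46 in brown and 3.86 ± 4.20 in yellow. Melanophilin, the adaptor between melanosomes and myosin, had 4.96 ± 2.99, 31.8 ± 31.4 and 36.5 ± 25.1 RPM in that order. Both lay above all white libraries in all 6 pigmented ones. Dopachrome tautomerase had 2, 0 and 0 reads in white, 16, 42 and 0 in brown and 2, 2 and 0 in yellow, and the oca2 transporter 4, 0 and 0 reads in white, 2, 44 and 4 in brown and 0, 2 and 0 in yellow, so their groups overlapped.

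**Figure D2:**
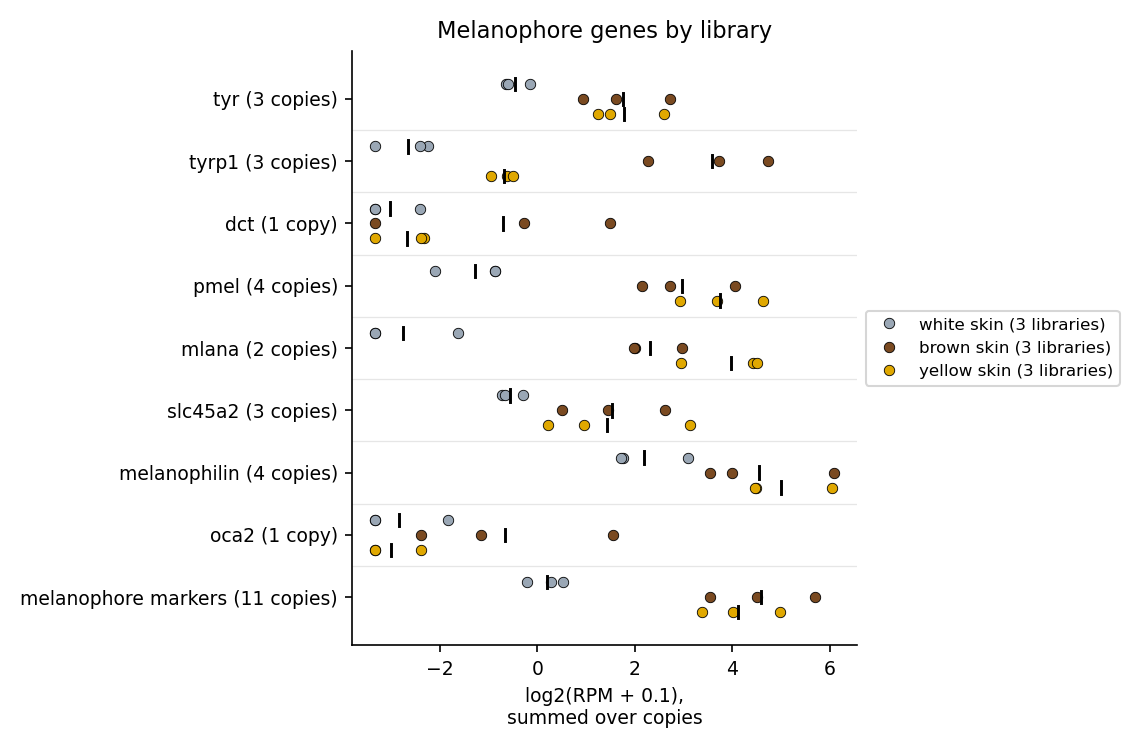
Reads of melanophore genes, summed over annotated copies and given as log2(RPM + 0.1), in each library (points) with the mean of the 3 libraries of a color (black ticks). The 11 marker copies in the bottom row have 1.07 ± 0.290 RPM in white, 28.8 ± 20.9 in brown and 19.2 ± 10.8 in yellow; the tyrp1 row separates brown from yellow, and the dct and oca2 rows overlap with white.

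Pteridine and purine synthesis supply the pigments of xanthophores and iridophores. In pteridine synthesis, 10 copies were tested and 1 lay above all white libraries, as did 2.36% of all tested genes. This copy was GTP cyclohydrolase 1-like LOC113056131 (chromosome 37), the first enzyme of the pathway, with 0.0231, 0.0287 and 0 FPKM in white, 1.03, 1.30 and 0.407 in brown, and 6.67, 4.10 and 1.61 in yellow. It did not pass (log2 change 1.54 ± 0.47, limma adjusted p = 0.613). The next members by p were pterin-4-alpha-carbinolamine dehydratase copies LOC113083902 and LOC113056957, which recycle the cofactor, with log2 changes of -0.49 and -0.66 (limma adjusted p = 0.837 for each). The list's median was -0.23.

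Among pigment cell regulators, 1 of 17 tested copies lay above all white libraries (2.36% of all tested genes). It was a Pax-7-like copy (LOC113068849), a transcription factor of xanthophore precursors in zebrafish, with 0.0346, 0.688 and 0.756 FPKM in white, 1.69, 5.82 and 1.22 in brown, and 6.14, 5.62 and 10.4 in yellow (log2 change 1.86, limma adjusted p = 0.514). The list's median log2 change was 0.10. In purine synthesis and salvage, 23 copies were tested with a median of 0.04. Above all white libraries lay 2 purine nucleoside phosphorylase copies (2.36% of all tested genes). LOC113045188, the one with the smaller p, had 2.43, 1.06 and 1.55 FPKM in white, 4.83, 8.04 and 5.87 in brown, and 2.49, 4.52 and 6.45 in yellow (limma adjusted p = 0.468). In the short marker lists of the pigment cells, 1 of 3 tested melanophore copies, 2 of 5 xanthophore copies and 2 of 5 iridophore copies lay above all white libraries. The share over all tested genes was 2.36%, and no copy of these lists passed. The marker lists hold copies already counted above, such as the Pax-7-like copy, so their counts are not separate ones. The marker lists had median log2 changes of 0.92, 0.12 and 0.66.

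**Figure D3:**
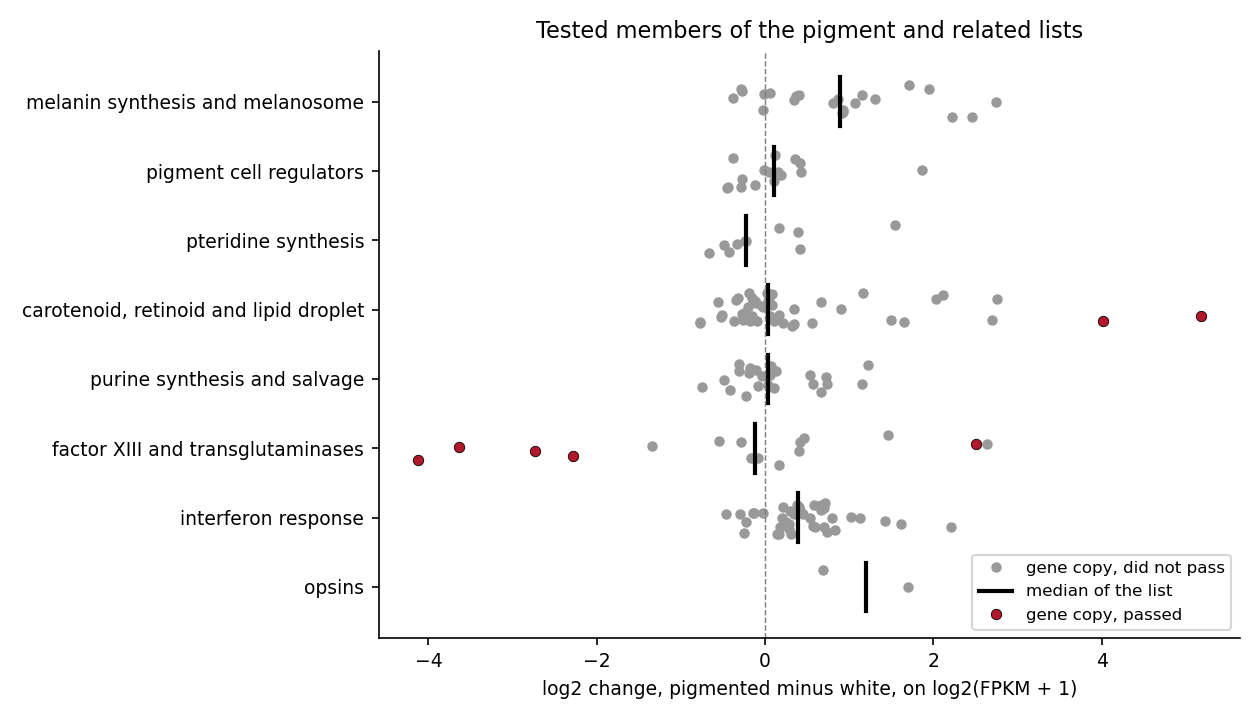
Log2 change between pigmented and white skin, on log2(FPKM + 1), of each tested gene copy in 8 lists (points; red with a black edge where the copy passed), with the list's median (black bar). The melanin list has a median of 0.89 with no copy that passed. The 5 of 16 tested copies that passed among factor XIII and transglutaminases and the 2 of 47 among lipid droplet genes stand far from medians of -0.12 and 0.04. Of all tested genes 0.0365% passed.

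Of 40 tested interferon response copies 33 had a positive log2 change, with a median of 0.40 (0.40 in brown and 0.48 in yellow). An unadjusted p under 0.05 was reached by 3, all higher, and none passed. Over all tested genes, 13006 of 27420 were positive, 3.84% were higher at that p and 2.36% lay above all white libraries. The interferon copy above all white libraries was Mx-like (LOC113043304), an interferon-induced antiviral GTPase, with 2.04, 0.183 and 3.21 FPKM in white, 6.24, 20.6 and 20.4 in brown, and 4.73, 11.0 and 9.02 in yellow (limma adjusted p = 0.374). Of 69 opsin copies only 2 were tested, both copies of opsin-5, a light-sensing receptor that responds to violet and ultraviolet light. LOC113098145 had 0.251, 0.156 and 0.0935 FPKM in white, 1.71, 3.19 and 1.56 in brown, and 3.36, 3.91 and 3.71 in yellow. It did not pass in the pooled comparison (log2 change 1.70 ± 0.26, limma adjusted p = 0.1). One color at a time, it passed in yellow (limma adjusted p = 0.0471) but not in brown (0.420).

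Markers of other cell types went both ways, and no member of these lists passed. Over 92 tested copies of skeletal muscle markers the median was -1.15 on the log2 scale (brown -0.53, yellow -1.76), with 21 positive. An unadjusted p under 0.05 was reached by 2, both lower (2.06% of all tested genes), and none separated the groups. The 26 dermal fibroblast and scale markers had a median of -0.58 (-0.72 in brown, -0.33 in yellow), with 2 positive and 3 lower at that p. The 10 Schwann cell and neuron markers had a median of -0.64 (-0.43 and -0.85), with 1 positive. The 8 adipocyte markers had a median of -0.89 (-0.72 and -0.77), with 0 positive and 1 lower at that p. Endothelium and blood stood at -0.19 over 14 copies (6 positive) and immune cells at -0.08 over 31 (14 positive, 2 lower at that p). Mucous cell markers had a median of 0.43 with 11 of 12 tested copies positive (0.34 in brown, 0.47 in yellow), ionocyte markers 0.20 with 3 of 4 positive, and keratinocyte markers were higher as well, at the median given with transglutaminase K. Of all 27420 tested genes 13006 were positive. Adipocyte markers took 0.0214% to 0.0442% of reads in white and 0.0107% to 0.0221% in pigmented skin, the ranges meeting at brown 1. The part of tissue makeup in the 10 calls was not tested beyond the muscle covariate.

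Detected and undetected genes were also compared in plain terms. Of 74297 genes, 2 had at least 1 FPKM in all 6 pigmented libraries and no read in white, the putative defense protein 3 and anaphase-promoting complex subunit 13 copies. At a minimum of 0.5 FPKM there were 2 more. A solute carrier family 41 member 2-like gene (LOC113066961), of a family of magnesium transporters, had 1.63, 11.4 and 0.673 FPKM in brown and 3.99, 3.74 and 14.6 in yellow. A vacuolar cation/proton antiporter-like gene (LOC113060606) had 0.741, 1.59 and 1.23 FPKM in brown and 3.57, 3.39 and 0.882 in yellow. In the other direction 1 gene had at least 1 FPKM in all white libraries and no read in pigmented skin, a mitochondrial serine tRNA with 2, 2 and 3 reads. A count of 0 in 3 libraries is easier to reach than in 6, so the counts in the 2 directions are not comparable.

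Several genes near the top of the ranking differed in which copy was read rather than in their sum. Chromosome 2 held 8 of the 60 genes with the smallest p, with 606 genes tested there. Pleckstrin homology domain-containing family J member 1 (PLEKHJ1) has 2 copies there about which the libraries split. LOC113112376 (2431533 to 2436006) had 0.0511, 0.0636 and 0 FPKM in white, 10.7, 1.99 and 16.7 in brown, and 17.3, 6.32 and 7.64 in yellow. LOC113112331 (1946985 to 1951893) had 13.5, 9.91 and 6.88 FPKM in white, 0.203, 2.50 and 0 in brown, and 0.0446, 3.90 and 0 in yellow. White libraries were read almost wholly on one copy, most pigmented libraries on the other, and brown 2 and yellow 2 on both.

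The next gene along, splicing factor 3A subunit 2, an RNA splicing protein, did the same at both places. LOC113112372 (2436165 to 2440502) had 0.135, 0.042 and 1.01 FPKM in white and 2.48 to 7.59 in pigmented skin, and LOC113112209 (1942508 to 1946823) had 6.28, 7.24 and 5.26 in white and 0 to 3.67 in pigmented skin. Of the pigmented libraries, brown 2 and yellow 2 had 3.67 and 2.52 FPKM of LOC113112209, yellow 1 had 0.0367 and the others had no read. At another place on chromosome 2, SEC62, a protein of the endoplasmic reticulum translocon, split less fully. LOC113119422 (19814490 to 19821222) had 0.116, 0.0361 and 0.0289 FPKM in white and 0.845 to 2.69 in pigmented skin. LOC113119606 (19403385 to 19410062) had 3.45, 5.30 and 2.21 in white and 0 to 1.67 in pigmented skin. In yellow 1 and yellow 2 LOC113119606 had 1.67 and 1.63 FPKM, more than the 1.45 and 1.24 of LOC113119422.

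None of these copies passed (limma adjusted p from 0.1 to 0.447), and the sums over copies differed by less than 1 SD of the group with the larger spread. PLEKHJ1 summed to 17.1 ± 3.88 FPKM in white and 18.6 ± 6.86 in pigmented skin, and splicing factor 3A subunit 2 to 18.6 ± 1.14 and 16.6 ± 6.21. SEC62 summed to 8.32 ± 3.24 and 5.64 ± 2.23. Of 6968 product names with 2 to 10 tested copies, 657 had a copy separated from white, and 7 of these (1.07%) had copies separated in opposite directions, among them these 3. Of all tested genes 2.36% lay above and 1.57% below all white libraries, and how many such families these shares alone would give was not computed. In 5 of the 7 the sums overlapped between groups. The 7 were picked for copies that went opposite ways, so overlap of their sums is not a separate result. The files do not show whether reads of one copy were assigned to the other, and the cause of the split was not tested.

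**Figure D4:**
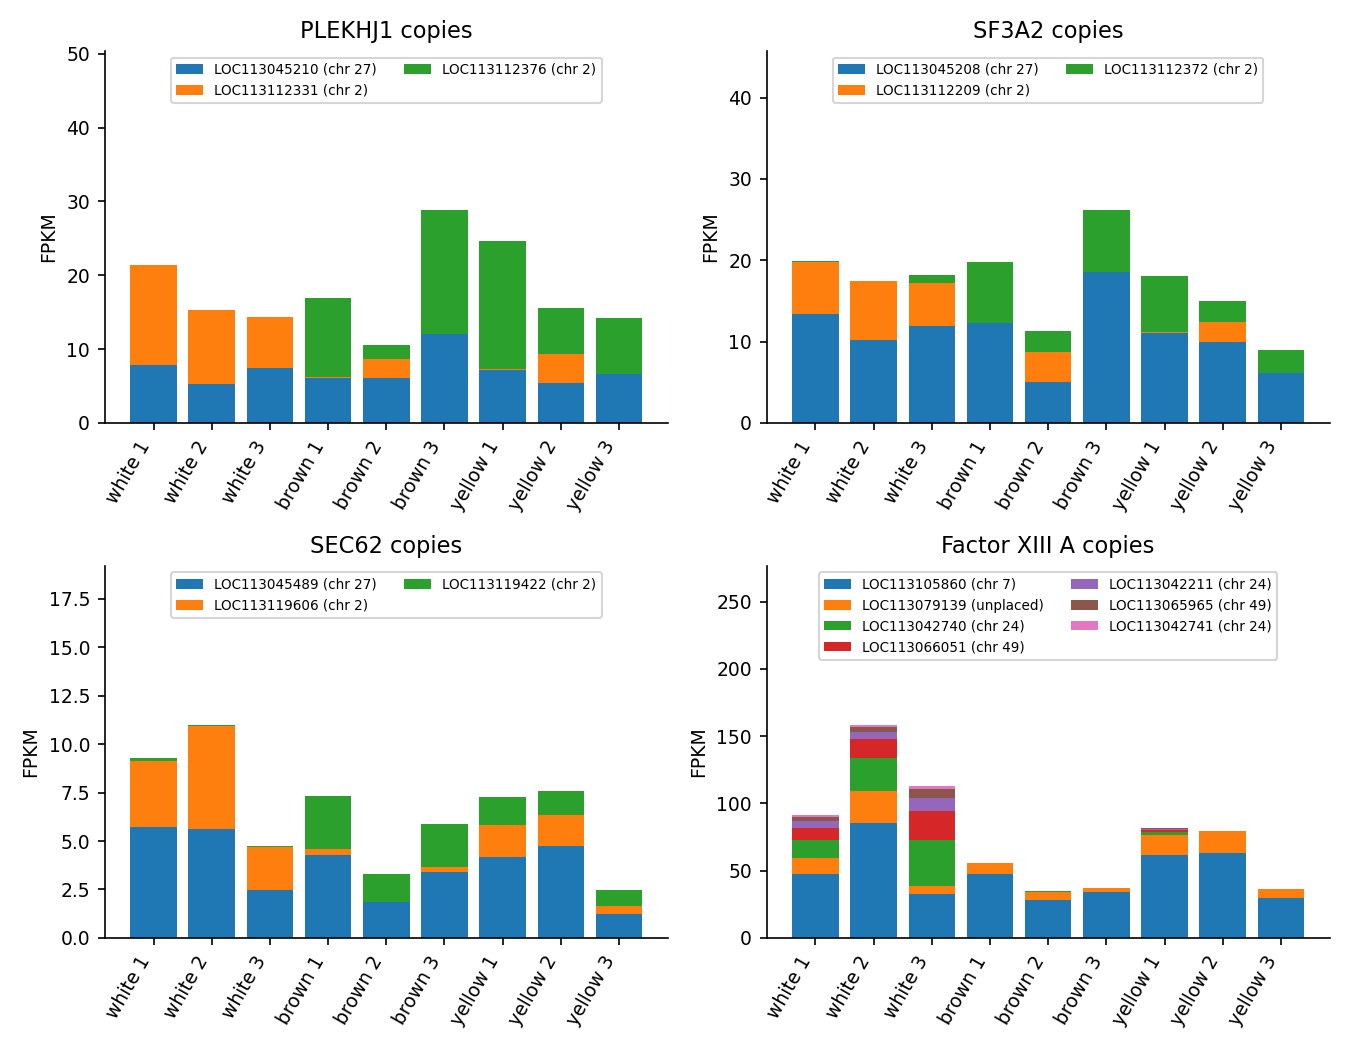
FPKM of each gene copy, stacked by library, for PLEKHJ1, SF3A2 (splicing factor 3A subunit 2), SEC62 and factor XIII A; copies under 1 FPKM in every library are left out. In the first 3 panels the orange copy on chromosome 2 is read mainly in white libraries and the green copy mainly in pigmented ones; in the factor XIII A panel the copies on chromosomes 24 and 49 are seen in white, and the chromosome 7 copy in all libraries.

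Genes of the circadian clock were looked at because several stood near the top of the ranking, so the list was chosen after the values were seen and has no test of its own. None of 68 tested copies passed. An unadjusted p under 0.05 was reached by 12, all higher in pigmented skin (3.84% of all tested genes), and 9 lay above all white libraries (2.36%). The list's median log2 change was 0.25, with 47 copies positive (13006 of all 27420 tested genes). A circadian-associated transcriptional repressor copy (LOC113066992, chromosome 50), which represses the clock's activators in mammals, had 10.1, 13.1 and 18.4 FPKM in white, 46.6, 49.8 and 51.0 in brown, and 41.4, 55.4 and 47.1 in yellow (log2 change 1.77 ± 0.28, limma adjusted p = 0.1). Its brown and yellow libraries were close together and none came near the white ones.

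Nuclear receptor subfamily 1 group D member 2 (LOC113115669), a repressor in the clock's second loop, had 31.1, 50.5 and 54.6 FPKM in white, 125, 80.5 and 120.2 in brown, and 106, 149 and 86.5 in yellow (limma adjusted p = 0.515). Period 1 copy LOC113054209 had 5.64, 3.15 and 2.31 FPKM in white, 8.75, 7.45 and 6.43 in brown, and 8.37, 12.9 and 6.64 in yellow (limma adjusted p = 0.578). Period 2 copy LOC113113592, a further repressor of the clock, had 0.833 to 1.31 FPKM in white and 1.69 to 5.06 in pigmented skin (limma adjusted p = 0.610). Period 2 copy LOC113110870 went the other way, with means of 5.27 FPKM in white and 2.97 in pigmented skin (log2 change -0.76). Copy LOC113045318 had means of 7.16 and 13.9 (log2 change 0.78). In both of these copies the groups overlapped (limma adjusted p = 0.837 for each). The sources used here do not give the hour at which fish of each color were sampled, so color and hour cannot be told apart for these genes.

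**Figure D5:**
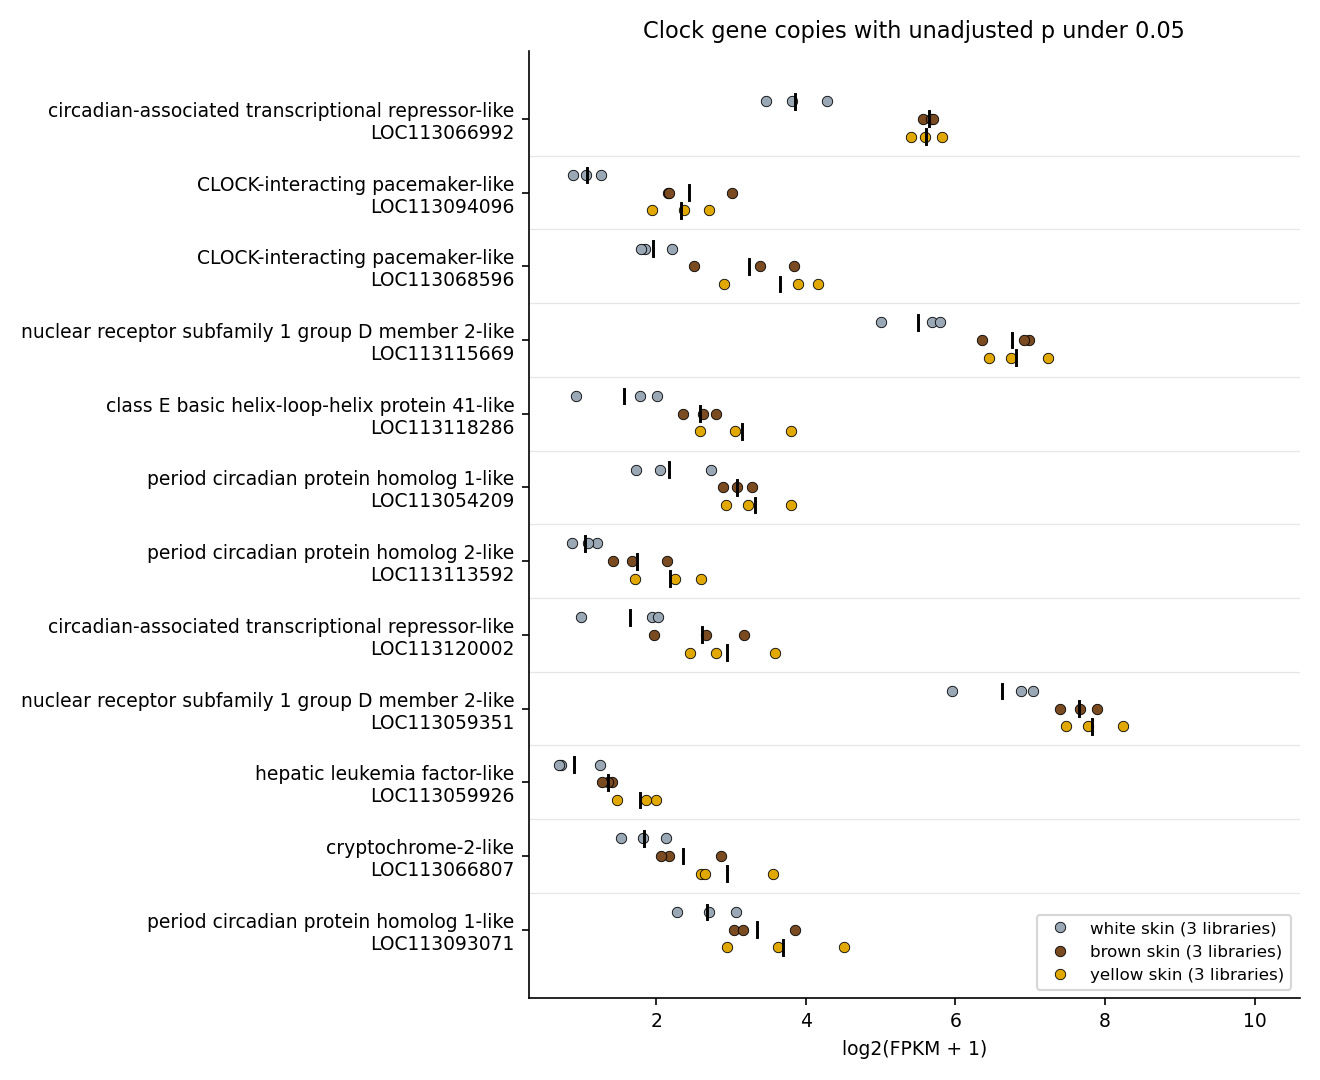
Level of the 12 clock gene copies with an unadjusted p under 0.05, on log2(FPKM + 1), in each library (points) with the mean of the 3 libraries of a color (black ticks). In 9 of the 12 rows all pigmented points lie to the right of all white points. Brown and yellow points overlap in each row except that of LOC113059926, where every yellow library lies above every brown one.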

How the data were processed

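RNA sequencing of back skin gave 1 file per library, in which the authors deposited an FPKM value for each gene with its position and product name. HISAT2 and StringTie are named without versions, per the submitters' processing notes, and no build is given. In the RefSeq table of assembly ASM336829v1, 72068 IDs of the files were found and 72059 had the same start, so positions are the files' own and chromosome numbers come from that table. Within a library, the product of FPKM and gene length was a whole multiple of a single unit in 100% of nonzero values (tolerance 0.001 reads), from which read counts and library totals were recovered. The library total implied by the FPKM was 0.675 to 1.39 times the counted reads.

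Genes that reached 1 FPKM in 3 or more libraries were tested two-sidedly on log2(FPKM + 1) with limma-trend (limma 3.58.1, R 4.3.3), with pigmented against white as the only term. The log2(FPKM + 1) scale understates changes of low genes. Genes under 1 FPKM in all white libraries could enter only through pigmented ones, so the counts above white in the lists depend in part on this filter. A second fit with 3 colors gave the brown, yellow and brown minus yellow values. Copies of a gene were taken as genes with the same product name. Each family's summed FPKM was tested as 1 added gene, 1 family at a time, with its copies kept among the tested genes. Folds come from pooled reads divided by pooled totals, against 3 reads in all where a group had none. Where a group had 1 to 3 reads, an exact binomial interval at 95% is given. Intervals and floors cover counting error only. Genes named are up to 12 rises and 12 falls that passed without overlap, passing list members, the 3 smallest p of the melanin, pteridine and carotenoid lists, and genes read on one side only; others were chosen after their values were seen. The members and lists were chosen with earlier results of these data known. The 8 role lists and 12 marker lists are matched on product names. The test was tried on simulated data. Alternatives covered the pseudocount, the filter, TPM, median-of-ratios scaling, a replicate block, a muscle covariate, array weights, voom on recovered reads, libraries left out and single colors.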

Additional observations from a re-analysis of the deposited data

Results flagged for a closer look

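In the 6 pigmented libraries, a single library stood apart from the rest in 5 of 34 genes examined. Yellow 1 was the highest by a wide gap in all 4 factor XIII A copies that passed: it had 1.182 FPKM of LOC113066051 where the others had at most 0.255, 0.667 of LOC113042211 where the others had 0, 2.432 of LOC113042740 where the others had at most 0.274, and 0.724 of LOC113065965 where the others had at most 0.116. The 4 copies were read in the same library, so these are not separate observations. Yellow 3 was the lowest for the pterin-4-alpha-carbinolamine dehydratase copy LOC113083902, at 0.316 FPKM against 1.10 to 1.51 in the others. Chance alone would flag about 1 in 20 such groups if the values were normally distributed. That rate does not hold for values near 0, such as those of the factor XIII A copies.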

How the results depend on the processing

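The comparison gave 10 genes, 6 higher and 4 lower. With a pseudocount of 0.1 there were 19 (17 higher, 2 lower; 8 shared with the 10), with 0.5 there were 16 (12 and 4), with no filter 11 (3 and 8), with a filter at 5 FPKM 5 (4 and 1), with array weights 58 (52 and 6, with brown 1 weighted 4.63), with voom on recovered reads 0 (0 and 0; 1526 at an unadjusted p under 0.05), and without the 3 libraries numbered 3 0 (0 and 0; 1301 unadjusted). Leaving out 1 library gave 0 to 10 genes, 0 to 6 higher and 0 to 4 lower: 6 (3 and 3) without brown 1, 2 (0 and 2) without white 1, and 0 without white 2 or white 3. TPM gave 11 and shifted the median of all genes to -0.09; median-of-ratios scaling gave 10, the 3-color fit 12 and the muscle covariate 11. Detection at 0.5 FPKM gave 4 genes in pigmented and 3 in white skin only, and at 2 FPKM 2 and 0. The cause of these differences was not tested. No named gene changed direction.

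Replicate numbers are shared by the colors, but nothing in the labels ties same-numbered libraries together, and not every pair deviated together. Correlations of deviations ran from 0.406 to 0.674 for number 1, from -0.302 to 0.220 for number 2 and from 0.186 to 0.766 for number 3, and 5 of 9 libraries correlated best with one of their own number. The libraries numbered 3 also share the lowest ratio of implied total to counted reads (0.675 to 0.762, against 1.08 to 1.39) and the most muscle reads, so a shared batch was not settled. With the replicate block 7 genes passed (4 higher, 3 lower), all among the 10; LOC113065965, the chromosome 2 transcript and transglutaminase K did not (adjusted p = 0.0561, 0.0648 and 0.0648). Depth limits genes with few reads, such as most melanin gene copies, and 3 white libraries limit every call.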

Other observations

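Further genes near the top of the ranking, chosen after their values were seen, were higher in all 6 pigmented libraries without passing. Mucin-22-like LOC113053457 had 2.90, 0.0784 and 1.71 FPKM in white, 8.33, 13.4 and 20.5 in brown, and 10.1, 18.5 and 7.34 in yellow (limma adjusted p = 0.181). Crumbs homolog 3-like LOC113067675, a cell polarity protein, had 0.733 to 1.34 FPKM in white and 2.85 to 6.57 in pigmented skin (adjusted p = 0.125). NADPH oxidase activator 1-like LOC113049300, a partner of enzymes that make superoxide, had 0.228 to 1.99 and 3.91 to 12.6 FPKM (adjusted p = 0.188). The homeobox gene Dlx4a-like LOC113045011 had 5.67, 0.0458 and 12.9 FPKM in white, 39.3, 63.0 and 118 in brown, and 51.0, 39.0 and 24.5 in yellow (adjusted p = 0.320). White 2 was the lowest white library in the mucin, the oxidase activator and the homeobox gene.

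The amino acid transporter copies LOC113052118 (large neutral amino acids transporter small subunit 2-like) and LOC113065183 (sodium-coupled neutral amino acid transporter 2-like) had 3.39 to 6.79 and 6.44 to 10.8 FPKM in white against 10 to 22.5 and 15.6 to 29.5 in pigmented skin (adjusted p = 0.274 and 0.320). A kinase of branched-chain amino acid breakdown (LOC113081119) had 3.71, 4.34 and 5.44 FPKM in white, 18.0, 16.8 and 20 in brown, and 15.6, 27 and 11.2 in yellow (adjusted p = 0.125). Krueppel-like factor 9 (LOC113091279), a transcription factor induced by glucocorticoid and thyroid hormones in mammals, had 2.24, 3.32 and 10.5 FPKM in white, 35.5, 22.3 and 30.9 in brown, and 17.2, 39.5 and 15.1 in yellow (adjusted p = 0.276). In the other direction, lysozyme C-like LOC113066219, an antibacterial enzyme, had 3.02, 10.2 and 12 FPKM in white and 0.636 to 2.62 in pigmented skin (adjusted p = 0.288). Of the 60 genes with the smallest p, 51 were higher and 9 lower in pigmented skin, and 9 had an unadjusted p under 0.05 between brown and yellow. Of all 27420 tested genes, 13006 were higher in pigmented skin, and 1.67% had an unadjusted p under 0.05 between brown and yellow.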
